A study of Mus musculus with 101 samples.

Results

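Germ cells of 53 XY mouse embryos were ranked by their level of Nanos2, and the 17 embryos with the highest values were compared with the 17 with the lowest on all other genes, whatever their exposure. The 19 embryos between them formed a middle group. Because the groups were selected on Nanos2 itself, it was not tested between them, and each adjusted p of this comparison measures how a gene went with Nanos2 in the same libraries that the ranking used. Germ cells high in Nanos2 had more RNA of the keratin genes Krt17 and Krt42, of the GDNF receptor gene Ret, and of 13 of 24 methylation and piRNA genes and 9 of 22 early meiotic genes, where 12.2% of all genes were higher. They had less RNA of the X-linked homeobox genes Rhox6 and Rhox9, of Kit and Zfp42, and of 10 of 24 replication and mitosis genes, where 13.3% of all genes were lower. One methylation and piRNA gene, Morc1, was lower as well. Among vehicle embryos alone, which are part of the same groups, Krt17, Tdrd5, Rhox6 and Kit differed in the same directions. There 38 of the 108 genes named as higher or lower passed in the same direction, and 3 turned around without passing. Of the 24 replication and mitosis genes 0 were called there, where 102 of 13167 genes were lower.

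NANOS2 is a zinc-finger RNA-binding protein made in XY germ cells of the fetal testis. With DND1 it brings target RNAs to the CCR4-NOT deadenylase, and without it XY germ cells start meiosis and do not keep their male program. FGF9 and NODAL signals act upstream of Nanos2, while retinoic acid induces Stra8 and meiosis.

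Pregnant mice of the founder generation (F0) had received sesame oil as vehicle, or benzo[a]pyrene (BaP), a polycyclic aromatic hydrocarbon, by mouth at 0.033 mg/kg/day, at 0.2 or at 2, and embryos came from the next 3 generations (F1 to F3). The OG2 strain carries EGFP under the Pou5f1 promoter, which let primordial germ cells be sorted from embryonic gonads. By the authors' account gonads of all generations were taken on the same embryonic day. Dosing of the founders lasted fewer days for F1 than for F2 and F3. Oligo-dT primed cDNA of 1 embryo made 1 library. The 101 embryos came from 56 dams, and the 53 XY embryos, from 50 dams, comprised 21 of F1, 15 of F2 and 17 of F3, with 17 vehicle embryos and 9, 13 and 14 at the rising doses. Reads counted in genes, as recovered from the normalized values of 52 of the 53 XY libraries, ran from 5529311 to 87240533, with a median of 7867283. They are not the number of reads sequenced.

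Values are normalized counts, which are gene counts that the authors normalized by the TMM method of edgeR. Nanos2 lies at chr7:18987400-18988962 on the plus strand of GRCm38. It was 0 to 10.95 in XY embryos, with a median of 1.84, and 42 of the 53 lay above 0.456, the highest value of 48 XX embryos. The high group held 3.21, 5.98 and 10.95 as its lowest, median and highest value, from 22 to 705 reads. The low group held 0, 0.130 and 0.592, from 0 to 5 reads, with 6 of 17 embryos at 0. The middle group held 0.614, 1.84 and 3.13, from 5 to 46 reads. At its upper edge the low group ended at 0.592 and the middle group began at 0.614, with 5 reads behind each value, while the high group began at 3.21 just above a middle embryo at 3.13. Low values thus rest on few reads, and counting error alone allows neighbours in rank to change places.

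**Figure D1:**
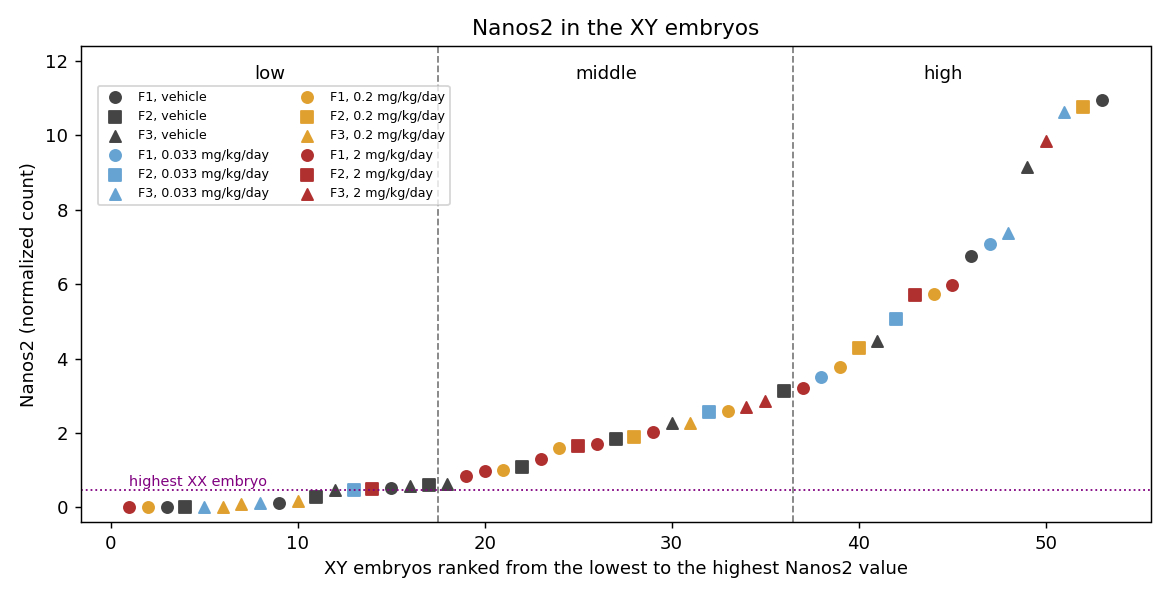
Normalized count of Nanos2 in each of 53 XY embryos against its rank, with colour for the dose and shape for the generation; dashed lines mark the limits of the low and high groups and the dotted line marks the highest of 48 XX embryos. The 17 highest embryos sit between 3.21 and 10.95, and the 17 lowest between 0 and 0.592.

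Every dose and generation had embryos in both groups. Of the high embryos 8 were F1, 4 F2 and 5 F3, and of the low embryos 5, 5 and 7. Vehicle embryos made up 4 of the high and 8 of the low group. Median Nanos2 was 1.70 in F1, 1.84 in F2 and 2.26 in F3, and 0.614 in vehicle embryos against 3.52 at 0.033, 1.89 at 0.2 and 1.86 at 2 mg/kg/day. Generation took 0.125% and dose 3.22% of the variance of log2(Nanos2 + 0.5), with permutation p of 0.969 and 0.652, both 0.969 after Benjamini-Hochberg adjustment over the 2 tests. Of 3 technical measures tried in XY embryos, none went with Nanos2 (permutation tests, adjusted p 0.607 or above). For the reads r was 0.05 (p = 0.718) and rho -0.09 (p = 0.506), and r was -0.13 (p = 0.381) without the 2 libraries with most reads. For the sum of normalized counts r was -0.10 (p = 0.470) and rho -0.14 (p = 0.333), and r was -0.03 (p = 0.856) without the 2 embryos farthest out. For the number of genes detected r was 0.13 (p = 0.344) and rho 0.17 (p = 0.225), and r was 0.07 (p = 0.611) without the 2 farthest out.

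Between high and low embryos, 1592 of 13051 genes were higher and 1735 lower at a limma adjusted p under 0.05. Here and in what follows, tests were run on log2(normalized count + 0.5) of genes that averaged 0.5 or more, and p was adjusted by the Benjamini-Hochberg method. These counts are 12.2% and 13.3% of the genes tested, the shares beside which the counts of each gene list in this comparison stand. The median log2 difference over all genes was -0.02, and higher genes made up 47.9% of those called. Under upper quartile scaling that median was 0.04 and the higher share 58.3%, and with a mean of at least 5 the higher share was 39.8%, so the balance of directions depends on the scaling and on the filter. Genes outside the lists were picked below for a small p or for ranks like those of Nanos2 in these same libraries. Their lack of overlap between the groups follows in part from that choice. How many of all genes were without overlap was not counted.

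Krt17 encodes a type I keratin of epithelial filaments, and Krt42 is its neighbour on chromosome 11 at chr11:100262882-100269871 on the same minus strand. In the low group Krt17 was 0 at its lowest, 1.18 at the median and 2.41 at its highest, and in the high group it was 6.93, 19.3 and 28.5. The middle group lay between, with a median of 5.82. No value overlapped between high and low embryos, and the log2 difference was 3.51 (SE 0.21, adjusted p 3.47e-16). Krt42 held 0.841, 3.87 and 6.14 in low and 19.7, 29.5 and 48.2 in high embryos, again without overlap, a log2 difference of 3.04 (adjusted p 7.63e-16). Krt17 RNA was all but missing in XX littermates, where no embryo passed 0.136.

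Asb9, an X-linked gene of a SOCS-box substrate adaptor, had the largest difference of the leading genes. Its low embryos held 0, 0.230 and 2.93 and its high embryos 7.03, 14.4 and 31.6, for a log2 difference of 4.19 (SE 0.25, adjusted p 3.47e-16). Upp1, which encodes uridine phosphorylase of pyrimidine salvage, went from a median of 2.81 in low to 22.15 in high embryos, and Emp2, a membrane protein gene, from 0.963 to 8.94. Dbndd2 had medians of 6.21 and 35.6. All 3 were without overlap, with log2 differences of 3.31, 2.65 and 2.25. Krt17, Upp1, Krt42, Dbndd2 and Asb9 were also the 5 genes whose ranks over all 53 XY embryos ran closest to those of Nanos2.

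Ret, the receptor that takes up GDNF signals in later spermatogonia, was near the limit of detection in low embryos, at 0, 0.189 and 1.04. In high embryos it held 2.02, 2.47 and 5.48, all above the low group, for a log2 difference of 2.19 (SE 0.17, adjusted p 1.21e-12). The lncRNA A230065H16Rik and the genes Fam70b, Msmp, Fbxo41 and Prss28 followed the same course, with low-group medians of 0.106, 0.532, 0, 0.0945 and 0 and high-group medians of 2.24, 4.29, 2.38, 2.30 and 2.56. For these 5 genes all 17 high embryos lay above the highest low embryo, whose reads came to 11 at most.

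Among the genes lower in high embryos, Rhox6 and Rhox9 are reproductive homeobox genes of a cluster on the X chromosome, Rhox6 at chrX:37826910-37829857 on the plus strand. Rhox6 held 49.8, 181 and 604 in low embryos, 45.0, 76.6 and 128 in the middle group, and 11.64, 30.7 and 63.7 in high embryos. Low values were seen in all high embryos, and 16 of 17 low embryos lay above the highest of them. The log2 difference was -2.56 (SE 0.23, adjusted p 5.80e-11). Rhox9 fell alongside, from a median of 254 to 47.8, a log2 difference of -2.42 (adjusted p 1.05e-10).

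Umodl1, a gene of an extracellular matrix protein, was 14.8, 31.7 and 58.5 in low and 3.24, 5.03 and 12.9 in high embryos, a log2 difference of -2.30 (SE 0.18, adjusted p 7.29e-13). Pla1a, a phospholipase gene, was 9.51, 22.5 and 39.3 in low and 1.23, 4.41 and 9.39 in high embryos, and its log2 difference was -2.23. Neither gene had a high embryo that reached the lowest low embryo. Lgals9, a galectin gene, had medians of 23.6 and 6.21, and Hmgn5, an X-linked gene of a nucleosome-binding protein, of 194 and 44.9. Txnrd1, which encodes thioredoxin reductase, had medians of 31.2 and 14.4, and its 17 high embryos were all below the low group. Gca, Cds1 of phospholipid synthesis and 1700019D03Rik were lower without overlap as well, with log2 differences of -1.45, -1.64 and -1.37.

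**Figure D2:**
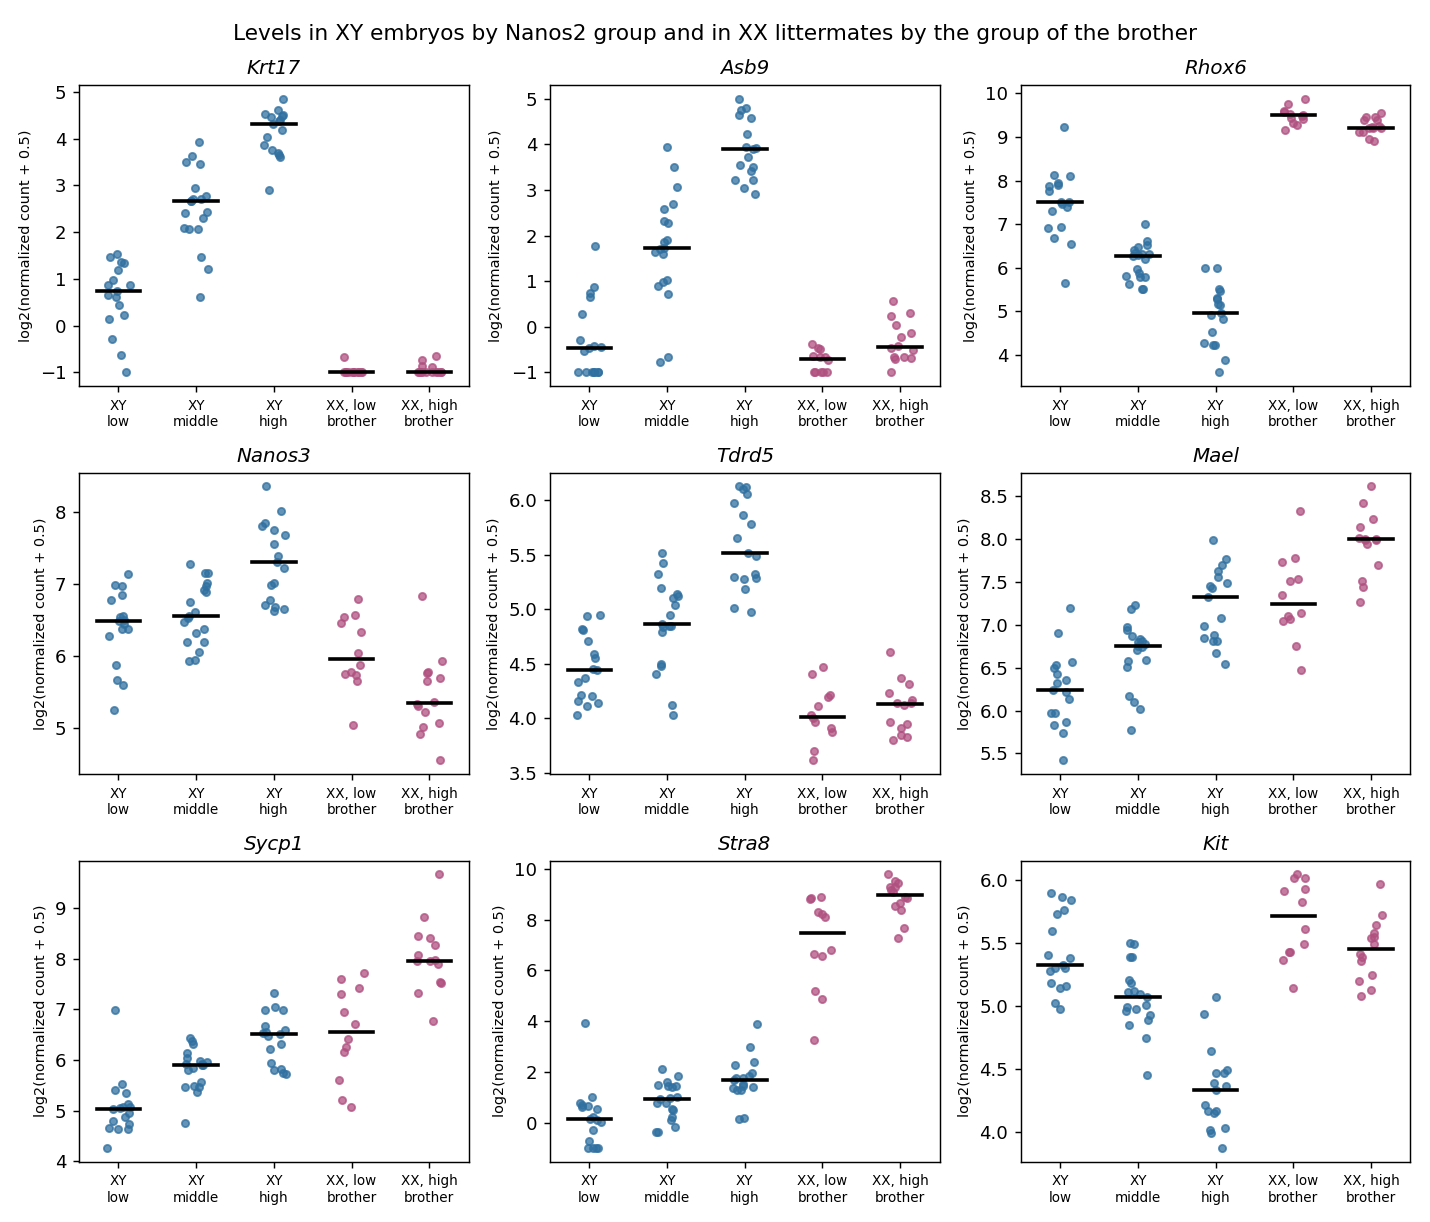
Log2(normalized count + 0.5) of 9 genes in each embryo of the low (17), middle (19) and high (17) Nanos2 groups of XY embryos and in XX littermates of low (12 dams) and high (14 dams) embryos, with a horizontal line at each median. Krt17 and Asb9 differ between low and high XY embryos by more than between their XX littermates, while Sycp1 is higher in XX littermates of high embryos as well.

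The partners of NANOS2 and the subunits of CCR4-NOT formed a list of 15 tested genes, of which 2 were higher and 1 lower, the other 12 not passing. The list's median log2 difference was -0.09, beside -0.02 for all genes. Nanos3, the germ cell survival factor of the same protein family, held 37.6, 88.9 and 140.4 in low and 98.4, 158 and 326 in high embryos. Groups overlapped, with 10 of 17 high embryos above every low one, and the log2 difference was 0.92 (SE 0.17, adjusted p 5.83e-05). Tob2, an adaptor between deadenylase and RNA-binding proteins, rose from a median of 3.76 to 7.07. Cnot8, a catalytic subunit, was 83.5 in low and 63.5 in high embryos at the median (log2 difference -0.29, adjusted p 0.00534). Dnd1, whose protein loads NANOS2 onto RNA, had medians of 27.2 and 35.2 and did not pass (log2 difference 0.28, adjusted p 0.106).

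Genes of DNA methylation and of the piRNA pathway, which silence transposons in male germ cells, act as XY germ cells lay down new methylation after the arrest. Piwi proteins carry the small RNAs, and Tudor proteins hold the complexes together. Of 24 tested genes, 13 were higher and 1 lower, and the median log2 difference was 0.56. Between vehicle XY and XX embryos, 4 of 23 tested genes of this list were higher in XY, Tet1, Tdrd5, Dnmt3b and Dnmt3a. Higher in XX were 10, among them Mael, Tdrd7, Tet2, Henmt1 and Gtsf1. Of all 13182 genes tested there, 3741 were higher in XY and 3834 in XX. Tdrd5, a Tudor protein gene, was 15.8, 21.3 and 30.3 in low and 31.0, 45.2 and 69.3 in high embryos, so that the groups did not overlap (log2 difference 1.13, SE 0.12, adjusted p 2.03e-09). Mael, of the piRNA processing bodies, went from 42.3, 75.2 and 146 to 92.7, 159 and 254, with 9 of 17 high embryos above the low group. The Tudor genes Tdrd1 and Tdrd7 had median values of 3.51 and 5.21 in low and 8.34 and 9.11 in high embryos. Gtsf1 had medians of 13.9 and 45.3, and Henmt1, which methylates piRNA ends, of 0.473 and 3.13.

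Among the Piwi genes, Piwil4, the nuclear Piwi protein of fetal testis, had medians of 1.33 and 2.98 (log2 difference 0.82, adjusted p 0.00394). Piwil1 was also called higher, at low medians of 0.381 and 0.700, and Piwil2 had 23.0 and 26.4 and did not pass (adjusted p 0.176). Dnmt3a, a de novo DNA methyltransferase, rose from a median of 8.65 to 13.7 (log2 difference 0.58), whereas Dnmt3b was at 2.55 and 2.65 and did not pass. Exd1, Uhrf1, Tet2 and Tdrd9 completed the higher genes, although Tdrd9 lost its call when any of 25 embryos was left out. Morc1 was the lower gene, with medians of 21.0 and 13.3.

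XX germ cells of this age enter meiosis, while XY germ cells are kept from it, in part by NANOS2, which represses Stra8. Of 22 tested early meiotic genes 9 were higher in XY embryos high in Nanos2 and the other 13 did not pass, with a median log2 difference of 0.25. Stra8, the retinoic acid target that starts the meiotic program, was 0, 0.592 and 14.65 in low, 0.274, 1.40 and 3.80 in middle and 0.620, 2.69 and 14.1 in high embryos. Its ranges overlapped almost fully, yet all high embryos lay above the low median (log2 difference 1.50, SE 0.33, adjusted p 0.000620). The likelihood ratio test of edgeR called 8 of the 22 genes higher and did not call Stra8. Sycp1, of the synaptonemal complex, was 18.7, 32.4 and 125.5 in low and 52.1, 90.5 and 159.5 in high embryos (log2 difference 1.35, adjusted p 9.45e-08).

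Msh4 and Msh5, of meiotic crossover formation, had log2 differences of 1.08 and 0.56. Sycp2, Taf7l, Rec8 of meiotic cohesin, Spo11 of double-strand breaks and Tex12 were also higher, by 1.24, 1.68, 1.17, 0.87 and 0.73. In contrast Dmc1, the meiotic recombinase, had medians of 13.3 and 12.9, and Sycp3 had 163 and 209.5 without passing (adjusted p 0.197). The median of Stra8 in both XY groups was far below that of XX littermates, which was 193 or above, although the lowest XX littermate, at 9.12, lay within the XY range.

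Genes of retinoic acid handling include carriers of the acid and enzymes that make or degrade it, and 2 of 11 tested were higher. Crabp2, which carries retinoic acid to its receptors, had values of 5.53, 10.5 and 22.7 in low and 15.1, 22.9 and 41.7 in high embryos (log2 difference 1.03, adjusted p 5.74e-07). Aldh1a2, which makes retinoic acid, was at medians of 2.17 and 3.79. Crabp1, another carrier, was lower, with medians of 21.4 and 16.8, and its call was lost without the F3 embryo D1390.5. Cyp26b1, which degrades retinoic acid, had 1.27 and 1.19 and did not pass.

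Among 18 tested genes of oogenic factors and BMP response 1 was higher and 4 were lower. Id4, an inhibitor of DNA binding, rose from a median of 2.13 to 4.79 (log2 difference 0.83, adjusted p 0.000222). Smad1, Id3, Msx2 and Gata2 were lower, by -0.67, -0.49, -1.24 and -0.77. Msx2, a BMP target, held 0, 2.27 and 26.1 in low and 0, 0.564 and 3.55 in high embryos, so that ranges overlapped. The oocyte regulator Figla had medians of 0.481 and 0.785 and did not pass (adjusted p 0.0649).

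NODAL, a TGF-beta family signal, acts in XY germ cells before male fate is fixed, and FGF9 of Sertoli cells acts beside it. Of 13 NODAL and activin genes 2 were lower by limma, the other 11 not passing, and the edgeR tests and upper quartile scaling each called 1 of the 13 higher. Nodal had medians of 11.58 and 10.1 and its co-receptor gene Tdgf1 of 16.97 and 15.4. Lefty2, a target and inhibitor of NODAL, was at 33.8, 90.8 and 143 in low and 47.9, 68.1 and 95.7 in high embryos (log2 difference -0.38, adjusted p 0.0193), while Lefty1 had medians of 66.6 and 77.0 and did not pass (adjusted p 0.0547). Foxh1, a partner of SMADs, was lower by -1.05.

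In the FGF response list of 14 genes 1 was higher and 4 lower, with a median of -0.31, against 1 and 2 under upper quartile scaling and 0 and 3 by the quasi-likelihood test of edgeR, in which 8 had an unadjusted p under 0.05. Etv5, a target of FGF signals, was 51.5, 64.5 and 95.2 in low and 33.4, 48.2 and 59.2 in high embryos, where 13 low embryos lay above all high ones (log2 difference -0.46, adjusted p 2.78e-05). Spry1, Dusp6 and Spry4, feedback inhibitors of the pathway, were lower by -0.59, -0.31 and -0.48, and Fgf8 was higher by 0.53, of which Dusp6, Spry4 and Fgf8 lost their calls when some single embryos were left out.

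Primordial germ cells carry a network of pluripotency factors that both sexes shut down as they take on their fates. Of 22 tested, 9 were lower and 2 higher in high embryos (8 and 3 under upper quartile scaling), the other 11 not passing, and the median log2 difference was -0.35. Kit, the receptor for stem cell factor, was 30.9, 39.5 and 59.0 in low and 14.1, 19.6 and 33.1 in high embryos, and 15 of 17 low embryos lay above the whole high group (log2 difference -1.08, SE 0.11, adjusted p 7.33e-10). Zfp42, also known as Rex1, was 45.0, 58.5 and 96.8 in low and 19.9, 29.7 and 44.0 in high embryos, without overlap (log2 difference -0.97, adjusted p 7.31e-09).

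Tfap2c and Prdm14, which specify germ cells, were lower by -1.09 and -0.54, and Nanog by -0.64. Esrrb, Tfcp2l1, Tdh and Lin28a were lower too, Lin28a not without the F1 embryo D2645.2. Pou5f1, whose promoter drives the sorted EGFP, had medians of 117 and 86.1 and did not pass (log2 difference -0.32, adjusted p 0.133). Dppa3 and Dppa4 were the higher genes, by 0.37 and 0.33. The germ cell genes Ddx4 and Dazl were level, with log2 differences of 0.04 each that did not pass.

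XY germ cells stop dividing in the fetal testis and rest in G1 until after birth. Of 24 tested replication and mitosis genes, 10 were lower and the other 14 did not pass, with a median of -0.29. Under upper quartile scaling 7 were lower. Rrm2, a subunit of ribonucleotide reductase, was 79.98, 166.7 and 320.2 in low and 49.5, 77.5 and 143 in high embryos (log2 difference -0.98, adjusted p 7.25e-06), with overlap between the groups. Mcm4, Mcm2 and Mcm3, of the replicative helicase, Kif11, Ccna2, Mki67 and Top2a were lower by between -0.57 and -0.29. Aurkb and Ccnb1 passed as well, but lost their calls when any of 23 and of 21 embryos was left out. Cdk1 had medians of 251 and 215 and did not pass.

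Of 21 tested genes of G1 control 3 were higher and 5 lower, where 12.2% of all genes were higher and 13.3% lower. Ccnd1, the D-type cyclin, was 1.40, 4.04 and 11.9 in low and 5.92, 9.86 and 21.1 in high embryos (log2 difference 1.36, adjusted p 7.67e-07). Cdkn1c, which encodes the inhibitor p57, was 7.21, 14.8 and 27.0 in low and 16.97, 27.8 and 63.4 in high embryos (log2 difference 0.91, adjusted p 9.54e-06). Cdkn2b was higher by 0.69. Ccne1, cyclin E of S phase entry, was 41.3, 70.9 and 126.6 in low and 16.1, 41.1 and 62.7 in high embryos (log2 difference -0.96), and Ccne2, Ccnd3, E2f2 and Cdkn1a were lower by -0.68, -0.79, -0.68 and -0.47. Cdkn1b, the inhibitor p27, had medians of 0.575 and 1.41 and did not pass (adjusted p 0.0541).

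Of 14 genes that respond to tissue dissociation and stress, 2 were higher and 2 lower, where 12.2% of all genes were higher and 13.3% lower. Hspa1a and Hspa1b, near-identical heat shock genes whose reads cannot be told apart with certainty, were higher, with medians of 0.485 and 1.21 in low and of 1.27 and 3.49 in high embryos. Gadd45b and Dusp1 were lower by -0.62 and -0.41. Fos, Jun and Egr1 did not pass.

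The direction was checked among vehicle embryos. High in Nanos2 were 4 of them, at 4.48, 6.76, 9.14 and 10.95, and 8 were low. Krt17 was 20.4, 23.9, 22.7 and 21.8 in these 4 embryos in that order, against 0 to 2.25 in the 8 low vehicle embryos. Tdrd5 was 39.6, 54.4, 68.9 and 62.1, against 15.8 to 27.7. Rhox6 was 63.1, 28.1, 30.7 and 18.3, against 49.8 to 234, and Kit was 17.3, 17.5, 15.9 and 15.7, against 30.9 to 59.0. Krt17 and Tdrd5 were thus higher and Kit lower in all 4 than in any of the 8, and for Rhox6 a single high embryo fell within the low range. Stra8 was 3.42, 14.1, 4.70 and 7.38 against at most 1.23.

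Over all 17 vehicle XY embryos, slopes on log2(Nanos2 + 0.5) were positive for 515 and negative for 305 of 13053 genes, which is 3.95% and 2.34%. Each slope is the log2 difference per doubling of Nanos2 + 0.5. Krt17 had a slope of 1.06, Asb9 of 1.17, Stra8 of 0.85, Rhox6 of -0.65, Umodl1 of -0.68 and Kit of -0.36 (adjusted p 5.27e-06, 5.27e-06, 2.15e-05, 5.27e-06, 5.27e-06 and 0.000184). Of the piRNA and methylation list 9 genes had positive slopes that passed, Tdrd5, Tdrd1, Henmt1, Mael, Gtsf1, Tdrd7, Tdrd9, Exd1 and Uhrf1. Of 21 meiotic genes 7 did, Stra8, Taf7l, Sycp1, Spo11, Msh4, Sycp2 and Rec8. The calls of Gtsf1, Tdrd7, Tdrd9, Exd1, Uhrf1, Sycp2 and Rec8 were lost when some single embryos were left out.

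Of the other lists, positive slopes that passed were those of Dnd1, at 0.21 (adjusted p 0.0350), of Cdkn1c at 0.39 and Ccnd1 at 0.36, of the BMP response genes Id4 and Id1 at 0.30 and 0.34, of the retinoic acid genes Aldh1a2 and Crabp2 at 0.34 and 0.22, and of Rspo1 at 0.44. Id1 did not pass between 17 and 17 (log2 difference 0.37, adjusted p 0.379). Negative slopes that passed were those of Kit, of Zfp42 at -0.29, Etv5 at -0.17, Pecam1 at -0.19 and Rrm2, of the replication list, at -0.23 (adjusted p 0.0219). The calls of Dnd1, Id4, Id1, Crabp2, Etv5, Pecam1 and Rrm2 were lost when some single embryos were left out. These vehicle embryos are partly the same as those of the comparison of 17 with 17, so the results are only set side by side. The count of positive slopes moved between 281 and 893 as single embryos were left out. Comparing the 4 high with the 8 low vehicle embryos gave 221 higher and 102 lower genes, in which Dppa3, Gadd45b and Insl3 turned direction without passing, at -0.11, 0.13 and 0.08.

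Exposed embryos were also compared on their own. Of 13003 genes, 1421 were higher and 1543 lower in 13 high against 9 low exposed embryos, or 10.9% and 11.9%. The exposed and vehicle embryos are separate animals, so their directions can be compared. Of the 1395 higher genes tested in both, 88.7% were also above 0 in vehicle embryos, beside 48.5% of all genes, and of the 1527 lower genes 83.8% were below 0, beside 51.5%. Whether the difference depended on exposure was tested as an interaction in limma, which called 0 of 13051 genes, with 1286 at an unadjusted p under 0.05, and no other tool was run for it. A count of 0 there does not show that the differences were equal. Stra8 held a log2 difference of 2.92 in vehicle and of 0.86 in exposed embryos, where it did not pass (adjusted p 0.125). Of 24 replication genes 12 were lower in exposed embryos, with a median of -0.39, while in the 12 vehicle embryos limma called 0, with 5 at an unadjusted p under 0.05 and a median of -0.27, and edgeR was not run on either. Sertoli markers, of which limma called 0 in both, with 0 at an unadjusted p under 0.05 in exposed and 1 in vehicle embryos, had medians of 0.19 over 11 and of -0.31 over 12 markers.

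The 19 middle embryos were not used in the comparison of 17 with 17. Over them a slope on Nanos2 passed for 1 of 13137 genes, or 0.00761%, while 573 had an unadjusted p under 0.05. That gene was Mt2, a metallothionein gene singled out here after its values were seen, with a slope of -0.91 (SE 0.15, adjusted p 0.0372) that upper quartile scaling or leaving out any of 13 embryos took out of the called genes. Mt2 had medians of 43.7, 15.8 and 9.36 in low, middle and high embryos. Slopes of the middle embryos ran in the same direction for 78.3% of 1557 higher and 66.7% of 1714 lower genes of the comparison of 17 with 17, beside 54.8% and 45.2% of all genes. Krt17 and Umodl1 had middle slopes of 1.01 and -0.83, none of which passed.

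XX littermates gave values in embryos that the ranking did not use. Nanos2 was 0 in 40 of 48 XX embryos, and the groups of XX embryos were named by their XY littermates. XX embryos of 14 dams with a high XY embryo were compared with those of 12 dams with a low one, with 1 XX embryo per dam. Of 12956 genes, 1589 were higher and 1271 lower, or 12.3% and 9.81%. As single dams were left out, the higher count moved between 1129 and 1807 and the lower count between 818 and 1572. Genes tested in both sexes numbered 12283. Of 1375 genes higher in high XY embryos 359 were also higher in XX littermates, which is 26.1% of them and 24.8% of the 1446 of XX littermates, and 56 were lower. Of 1697 lower genes 444 were also lower, 26.2% of them and 35.4% of the 1256, and 86 were higher. Directions were shared by 70.5% and 72.0%, beside 49.8% and 50.2% of all genes.

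Of 25 meiotic genes tested in XX littermates, 22 were higher in littermates of high XY embryos, and the median log2 difference was 1.01, beside 0.01 for all genes. Stra8 was 9.12, 193 and 470.2 in littermates of low and 153, 508 and 882 in littermates of high embryos (log2 difference 1.80, SE 0.47, adjusted p 0.00888). Sycp1 had medians of 94.3 and 248.5, Sycp3 of 327 and 873, and Meiob, of meiotic recombination, of 5.22 and 20.8. Mei1 and Hormad2 were among the 5 higher genes with the smallest p, with Dtx4, Grk4 and Nf1. Dtx4, a ubiquitin ligase gene of the Notch pathway, was 0.134, 0.519 and 1.18 against 0.952, 1.87 and 3.17, and 13 of 14 dams lay above all 12 (log2 difference 1.20, adjusted p 0.000256).

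Of 22 pluripotency genes 12 were lower in XX littermates of high embryos, with a median of -0.51, and Dazl was higher, a call that leaving out single embryos could remove. Pou5f1 was 41.6, 85.5 and 126 against 10.9, 36.1 and 74.8, so that all 14 dams lay below the median of the 12 (log2 difference -1.12, adjusted p 0.00299), and Nanog had medians of 19.3 and 6.70. Of the piRNA and methylation list 7 of 23 were higher and 1, Pld6, was lower. The calls of Asz1, Pld6 and Tdrkh were lost when the embryo of any of 18, 11 and 7 dams was left out. This list had 6 higher and 0 lower genes without libraries over 2e+07 reads, and 9 and 3 with generation and dose as terms. Of oogenic and BMP genes 5 of 18 were higher, Figla by 1.85. Of these, Bmpr1a, Lhx8 and Smad9 lost their calls when the embryo of any of 3, 7 and 7 dams was left out (D3133, D3501 or D3744 for Bmpr1a, C4232, D2256, D2549, D3133, D3501, D3744 or D4021 for Lhx8, and C4232, C4605, D2549, D2645, D3501, D3744 or D4021 for Smad9). The quasi-likelihood test of edgeR called 3 of the 18. Of 24 replication genes 8 were lower by limma, 11 under upper quartile scaling, 12 with generation and dose as terms, 12 by the quasi-likelihood test of edgeR and 6 without libraries over 2e+07 reads. Of 12 FGF response genes 4 were lower and Fgfr3 was higher, with 4 to 6 lower under these alternatives. The calls of Mcm3, Mcm6 and Spry4 were lost without any of 8, 12 and 15 dams, with C4232, C4605, D1669, D2549, D3133, D3371 and D4021 among them for each. Of 9 dissociation and stress genes tested, Ier2, Gadd45b, Ier3 and Dnajb1 were lower and 0 higher, where 9.81% of all genes were lower. The calls of Gadd45b, Ier3 and Dnajb1 were lost when some single dams were left out. The quasi-likelihood test of edgeR called 5 of the 9 lower. The lower genes with the smallest p were Tspan1, Pacsin1, Apoe, Slc11a1 and Slc2a1, by -1.31, -0.85, -0.94, -1.07 and -0.78. The calls in XX littermates depended on the choice of litters. With litters of the 26 highest and 26 lowest XY embryos, 22 against 18 dams, limma called 0 genes, with 2607 at an unadjusted p under 0.05, while a slope on the Nanos2 of the XY littermates over all dams with both sexes had 1748 positive and 1292 negative genes. With log10 of the reads as a term 928 were higher and 791 lower.

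**Figure D3:**
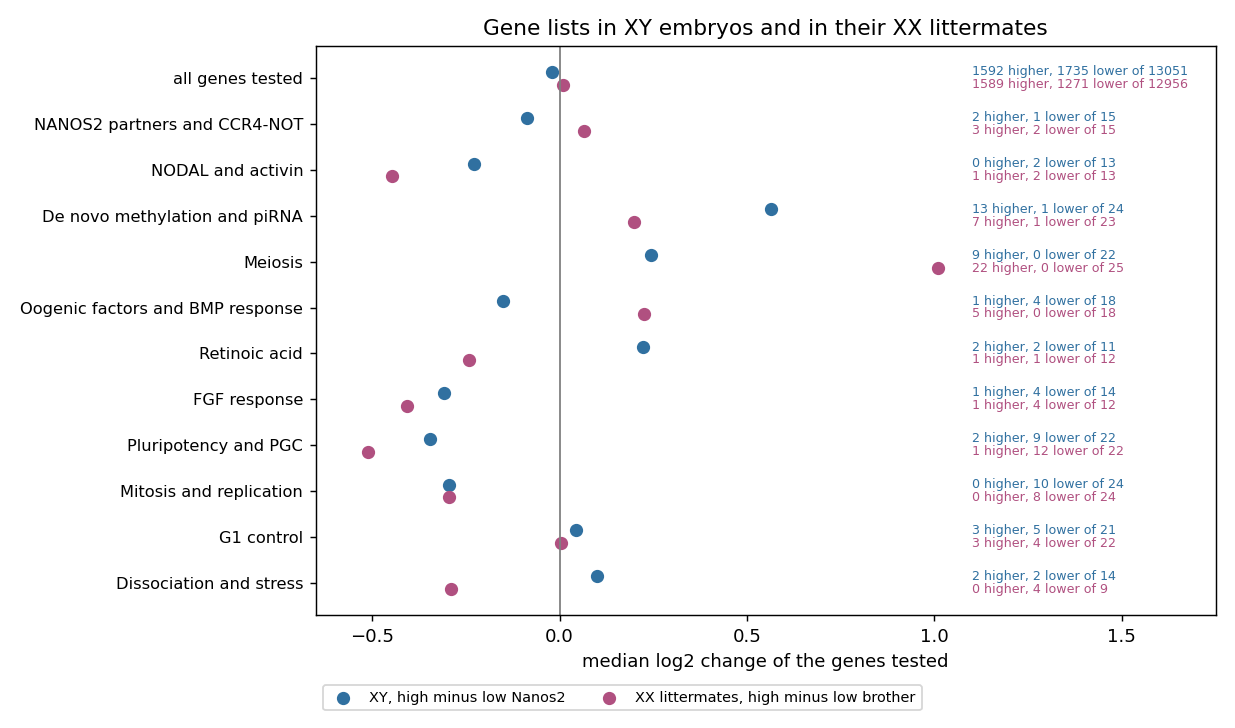
Median log2 difference of each gene list between high and low groups in XY embryos (blue) and in their XX littermates (pink), with the counts of higher and lower genes among those tested. The meiosis list has a median of 0.25 in XY embryos and 1.01 in XX littermates, and the piRNA and methylation list 0.56 and 0.20.

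The difference between the sexes was tested itself, as an interaction of group and sex. It passed for 1808 of 13230 genes, or 13.7%. The 60 embryos share 32 dams, and with dam as a correlated block 2433 genes passed, among them all 1808 in the same direction. Krt17 had an interaction of 3.48, Asb9 of 3.74, Tdrd5 of 1.07, Rhox6 of -2.31 and Kit of -0.85 (adjusted p 8.91e-17, 5.56e-14, 2.79e-06, 1.90e-08 and 8.30e-05). These genes were chosen for their difference in XY embryos, and Krt17 was near 0 in all XX littermates, so that its interaction restates the XY difference. Rhox6 was lower in XX littermates by no more than -0.25, a call lost without some single embryos. Meiob had an interaction of -2.22, since its medians in XY embryos were 0.454 and 0.479. Stra8, Sycp1 and Spo11 had interactions of -0.31, -0.16 and -0.14, which did not pass (adjusted p 0.768, 0.797 and 0.809).

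Among the genes called in opposite directions in the sexes, 56 and 86 as counted above, were 3 of the lists. Nanos3 was higher by 0.92 in high XY embryos and lower by -0.59 in their XX littermates, where its medians were 61.9 and 40.2 and the call was lost without some single embryos. Dppa4 went by 0.33 and -0.60. Ccne2 was lower by -0.68 in XY embryos and higher by 1.12 in XX littermates, from a median of 66.7 to 119. Dnd1 was lower by -0.82 in XX littermates and did not pass in XY embryos, with an interaction of 1.11 (adjusted p 0.000251).

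Sex-specific genes were defined in vehicle embryos, as those over 2-fold apart between 17 XY and 17 XX embryos at an adjusted p under 0.05, and were then tested in exposed XY embryos only. Of 1043 genes higher in XY germ cells, 273 were higher and 80 lower in high exposed embryos, with a median log2 difference of 0.21 and 65.1% above 0. Of 868 tested genes higher in XX germ cells 90 were higher and 199 lower, with a median of -0.13 and 41.9% above 0, beside -0.02 and 48.2% for all 13003 genes. The mean log2 of the former genes minus that of the latter was 1.21, 1.57 and 1.86 in high and -0.23, 1.17 and 1.49 in low exposed XY embryos, and -2.39 to -0.48 in all XX embryos. The lowest XY value belonged to the F3 embryo D1390.5, which also had the highest Rhox6 of the XY embryos. Without this embryo 1471 genes were higher and 1614 lower between the high and low groups of all XY embryos, vehicle embryos included. With it these counts were 1592 and 1735.

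Markers of other cell types were read as a check of the sort, and fewer cells of a type cannot be told apart from less RNA per cell in these bulk libraries. The 12 Sertoli markers summed to 64.2, 635.2 and 1077 in low and 39.6, 525.6 and 2191 in high embryos, mostly Cst9. Limma called 0 of the 12, with 1 at an unadjusted p under 0.05, and both edgeR tests called 0. With generation and dose as terms, and also without libraries over 2e+07 reads, limma called Fgf9 lower. Macrophage markers summed to medians of 24.6 and 17.6, with C1qb the most abundant of them in both groups. Of 10 tested Tyrobp was lower by limma and the edgeR tests called 0. Leydig markers summed to medians of 6.62 and 4.55, with Insl3 lower of 3 tested by limma only, and Cyp17a1 at a median of 0 in both groups. Hemoglobin and other erythroid markers summed to medians of 1.18 and 0.894. Hba-a1 had the highest mean of them in both groups, and its near-identical copy Hba-a2 makes its count uncertain. Limma and both edgeR tests called 0 of the 6 tested, with 0 at an unadjusted p under 0.05 by limma and 2 by the quasi-likelihood test of edgeR.

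Endothelial markers summed to medians of 29.4 in low and 19.01 in high embryos, mostly from Pecam1, which germ cells also express. Of 3 tested Pecam1 and Tek were lower, by -0.79 and -0.59, and Flt1 was higher by 0.46 with a call that single embryos could remove, while Kdr and Emcn had medians of 0 in both groups. Stromal markers summed to medians of 2.13 and 2.24, with Dcn foremost. The high vehicle embryo D1388.1, of F3, held the highest sums of the high group for several types, with 85.8 for stroma (8.05 in the next embryo), 36.3 for Leydig, 11.55 for ovarian supporting and 5982 for erythroid markers. Limma called 0 of the 3 stromal markers tested, with 0 at an unadjusted p under 0.05, and both edgeR tests called Dcn, as higher. Rspo1, a marker of supporting cells of the ovary that summed with 3 others to medians of 2.29 and 3.58, was higher by 1.23 (adjusted p 3.30e-05), with Irx3 at a median of 0 in high embryos. Germ cell markers summed to 2631, 3801 and 5518 in low and 3561, 4301 and 6023 in high embryos, mostly Dppa3. The 4 Y-linked genes summed to medians of 204 and 231, mostly Eif2s3y, and limma and both edgeR tests called 0 of them, with 0 at an unadjusted p under 0.05. In XX littermates, Aard of the Sertoli markers was higher by 0.67 and Pecam1 lower by -0.79 in those of high embryos, and the endothelial sum had medians of 46.8 in littermates of low and 25.7 in littermates of high embryos. The quasi-likelihood test of edgeR called both of these as well, and also Tcf21 of 6 stromal markers (median of the 6 -1.70, 4 at an unadjusted p under 0.05) and Hba-x and Hbb-y of 6 erythroid markers, all lower, where limma called 0 of either type, with 0 at an unadjusted p under 0.05. The XX littermate D3744.1 of a low embryo stood apart with sums of 67.4 for stroma and 28.8 for ovarian supporting cells and with Xist at 6.57. Without libraries over 2e+07 reads, 15 high against 16 low embryos gave 1582 higher and 1783 lower genes.

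Germline genes silenced elsewhere often carry an E-box, CACGTG, that MAX and MGA bind, or GCGGGA, that E2F6 binds. Promoters were read from 250 bases before to 50 after the start in GRCm38.p6. CACGTG was found in 10.1% of 1122 genes higher in high embryos with a promoter, and in 10.5% of 9257 tested and 7.24% of all 27025. GCGGGA was in 32.9%, 35.9% and 20.02%. Of 13 higher genes of the piRNA and methylation list 4 had CACGTG and 6 GCGGGA, and of the 8 higher meiotic genes with a promoter, which leaves out Spo11, 3 and 4. Mael was the only gene of the former and Sycp1 and Tex12 the only genes of the latter whose promoter held both words, and their promoters are shown with the words of either strand in capitals. That of Mael, at chr1:166238695-166238994 on the minus strand, reads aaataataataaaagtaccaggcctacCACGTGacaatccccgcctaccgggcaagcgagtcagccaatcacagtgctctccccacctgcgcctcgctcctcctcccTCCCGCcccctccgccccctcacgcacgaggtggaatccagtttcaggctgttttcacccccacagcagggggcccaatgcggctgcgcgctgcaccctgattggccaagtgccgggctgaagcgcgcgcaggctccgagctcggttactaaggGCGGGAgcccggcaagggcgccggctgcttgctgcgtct. That of Sycp1, at chr3:102936051-102936350 on the minus strand, reads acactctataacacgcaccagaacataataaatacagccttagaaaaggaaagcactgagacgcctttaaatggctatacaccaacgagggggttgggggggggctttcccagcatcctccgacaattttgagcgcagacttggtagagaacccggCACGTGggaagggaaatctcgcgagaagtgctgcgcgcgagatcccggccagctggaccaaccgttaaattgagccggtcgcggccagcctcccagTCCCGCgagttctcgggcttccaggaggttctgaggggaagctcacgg. That of Tex12, at chr9:50561219-50561518 on the minus strand, reads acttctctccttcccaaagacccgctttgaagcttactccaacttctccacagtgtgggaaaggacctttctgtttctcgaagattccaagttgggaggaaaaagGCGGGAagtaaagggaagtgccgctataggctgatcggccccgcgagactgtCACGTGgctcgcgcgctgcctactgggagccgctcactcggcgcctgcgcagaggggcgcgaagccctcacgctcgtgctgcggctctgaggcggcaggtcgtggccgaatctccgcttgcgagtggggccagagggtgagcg.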

How the data were processed

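The unit of the table is a signal, made by the authors from exon counts of Rsubread by TMM normalization in edgeR. Before that, STAR had aligned the reads to GRCm38 and Trim Galore had trimmed them, with no versions stated. The table holds 15423 genes in 101 embryos, 19 of them written as dates, and genes with low counts had apparently been left out by the authors. Embryos are separate animals but share dams, 56 in all. Whole read counts were recovered from the values of 99 of the 101 embryos (52 of 53 XY) by the size of a single read, and checked within a tolerance of 0.05 of a whole read. Recovered reads, which are reads counted in the genes of the table, ran from 5004382 to 87240533 per library with a median of 7789673.

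XY embryos were ranked by Nanos2, and the 17 highest and 17 lowest were compared with limma 3.58.1 (trend fit on log2(value + 0.5), genes with a mean of at least 0.5, Benjamini-Hochberg adjusted p under 0.05) in R 4.3.3. Nanos2 itself was left out of the tests. Slopes on log2(Nanos2 + 0.5) were fitted over vehicle and over middle XY embryos. Each dam gave at most 1 XX embryo, and dams with both high and low XY embryos were left out. Litters were taken from the dam numbers in the labels. Permutation tests used 1e+05 resamples. Sex-specific genes differed over 2-fold between vehicle XY and XX embryos at an adjusted p under 0.05. Tables and figures were made in Python 3.11.15 with NumPy 2.4.6, SciPy 1.17.1, pandas 2.3.3 and matplotlib 3.10.9. On simulated data with 200 changed genes limma recovered 100% in the XY comparison and in the vehicle slope, with 9 and 8 false calls. In XX embryos, split by their order into groups as large as those of the littermates, it recovered 98%, with 10 false calls. Changed genes were drawn from those above a minimum level. The simulated reads had the same relative spread for all genes and no variation shared within dams. These rates hold for that setting only.

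The genes named are those of the lists, the 10 higher and the 10 lower genes with the smallest p outside the lists, the 5 genes most and the 5 least like Nanos2 in rank over XY embryos, and in XX littermates the 5 higher and 5 lower genes whose p was smallest, passing over genes without a symbol or written as a date. Results of 1 gene of the lists are not reported. The comparison and the lists were chosen with earlier results of these data known. The promoter words, the Rhox family, Mt2 and the limit of 2e+07 reads were chosen after values were seen. Alternatives were other pseudocounts, filters, scaling, group sizes, terms, units and subsets, leaving out embryos or dams in turn, and edgeR 4.0.16 on recovered reads, by the quasi-likelihood and the likelihood ratio test.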

Additional observations from a re-analysis of the deposited data

Results flagged for a closer look

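A sample far from the others was looked for in 40 sets of values, each of 1 gene in a group of 4 to 10 embryos, and 7 sets had one. Chance gives about 1 in 20 where values are normally distributed, but these were normalized counts without log2, some of them near 0. The sets also share embryos and groups and are not independent. Nanos2 was 2.27 in the F3 embryo D1464.2 at 0.2 mg/kg/day, apart from the other 3 embryos of its group. Sycp1 was 159.5 in C4232.2 among the 4 high vehicle embryos and 125.5 in D3402.3 among the 8 low vehicle embryos. Among the 9 low exposed embryos, Asb9 was 2.93 in D2256.2, and the F3 embryo D1390.5 stood apart with Rhox6 at 603.5, Umodl1 at 58.5 and Stra8 at 14.65. C4232.2 has the most reads of all libraries, 87240533.

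For 3 genes of the lists, among 56 and 86 of all genes, the difference between high and low was called in opposite directions in XY embryos and in XX littermates, and the interaction with sex, as XY minus XX, passed in limma. It was -1.80 for Ccne2 (adjusted p 2.84e-05), 0.93 for Dppa4 (adjusted p 0.000127) and 1.51 for Nanos3 (adjusted p 3.60e-05). With dam as a correlated block it was -1.76, 0.94 and 1.53 (adjusted p 3.58e-06, 1.18e-05 and 3.58e-06). No explanation of these values was tested.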

How the results depend on the processing

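Of 108 genes named as higher or lower between high and low XY embryos, 108 kept their direction and adjusted p under 0.05 with dam as a correlated block, 101 under upper quartile scaling, 102 by the quasi-likelihood test of edgeR, 104 with 13 against 13 and 87 with 26 against 26 embryos. Leaving out embryos in turn, 98 kept it throughout, and the counts ran from 1437 to 1682 higher and from 1567 to 1864 lower genes. With a mean of at least 5, which tests fewer genes, 810 were higher and 1227 lower. In vehicle embryos alone, 4 against 8, there were 221 higher and 102 lower genes and 38 of the 108 genes passed in the same direction, with Dppa3 at -0.11, Gadd45b at 0.13 and Insl3 at 0.0839 turned around. These have fewer samples, and the cause was not tested.

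The vehicle slope with a mean of at least 5 gave 190 positive and 193 negative genes. Leaving out embryos in turn gave 281 (without C4321.1) to 893 (without D3001.1) positive and 160 to 760 negative genes, at the same embryos. Of 52 named genes, 38 kept their call throughout. The middle slope gave 0 negative genes under upper quartile scaling and 0 to 1 as embryos were left out in turn, and the cause was not tested.

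In XX littermates of the 26 highest and 26 lowest XY embryos limma called 0 higher and 0 lower genes, with 2607 at an unadjusted p under 0.05 and Ccne1 turned around at 0.0257. No other tool was run on those litters. The slope on the Nanos2 of the XY littermates over all dams gave 1748 and 1292, with 94 of 105 named genes kept, and generation as a term 1226 and 961. Further alternatives were chosen after seeing the data. Of these, vehicle dams alone gave 52 higher and 8 lower genes (4 against 7 dams), exposed dams alone about 1.0e+03 and 834 (10 against 5 dams), log10 of the reads as a term 928 and 791, generation and dose as terms 1974 and 1666, and edgeR 1475 and 1596. Leaving out dams in turn gave 1129 to 1807 higher and 818 (without D4021) to 1572 lower genes, and 83 of 105 named genes kept their call throughout. The fits of vehicle dams alone and of exposed dams alone have fewer samples, and no cause was tested. The interaction of group and sex with dam as a correlated block, also chosen after seeing the data, passed for 2433 genes, against 1808 without it.

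Without a minimum fold for sex-specific genes, the medians in exposed XY embryos were 0.0397 for genes higher in XY and -0.0650 for genes higher in XX germ cells, and over 4-fold they were 0.38 and -0.53. Depth limits the ranking by Nanos2, since the low group holds 0 to 5 reads of it per embryo.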

Other observations

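The Rhox family was looked at after Rhox6 and Rhox9 had been seen. Of 24 tested genes of the 25 in the table, 20 were lower and 3 higher (Rhox1, Rhox10 and Rhox3e) in high XY embryos by limma, with a median log2 difference of -0.89 and a range from -2.82 to 1.39. Copies of Rhox2, Rhox3 and Rhox4 are near identical, so their counts are uncertain. Of 483 tested genes of the X chromosome, which include this family, 55 were higher and 87 lower, or 11.4% and 18.0%, beside 12.2% and 13.3% of all genes. The X share without the Rhox family was not computed. Chromosomes 12 and 6 had 17.1% and 16.8% of their tested genes lower.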
